A study of Mus musculus with 2 samples.

Results

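Striated muscle contracts through the sarcomere, in which thick filaments of myosin slide along thin filaments of actin, tropomyosin and troponin, and titin spans from the Z disc to the M band. In the mouse embryo this apparatus is first assembled in the heart, which forms from cardiac mesoderm and the adjoining pharyngeal (second heart field) mesoderm while the left–right organizer (LRO), a ciliated pit at the ventral midline, sets left–right asymmetry. The first sarcomere genes of the heart are turned on in precursors before it beats, and several muscle proteins have paralogs that replace each other as the heart matures.

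The expression of 38 sarcomere and cardiac muscle genes was examined in sorted LRO cells and non-LRO cells. They were chosen by name, as structural, regulatory and calcium-handling genes of striated muscle, but with earlier results of these data known. Of the 38, 37 were among the 17586 gene symbols of the expression table. The exception was Tcap, the titin cap protein of the Z disc, for which no transcript was listed in either library. Cells came from FOXJ1-EGFP embryos on a mixed background of C57BL/6 and 129 SvEv at embryonic day 8 with 0 to 4 somites, in which a FOXJ1 promoter transgene labels LRO cells with green fluorescent protein (GFP). The GFP-positive pool of LRO cells and the GFP-negative pool of non-LRO cells each gave 1 library. Both groups carried the transgene, and the pools came from separate sets of embryos, with fewer cells and less RNA behind the LRO library. With no replicate library, the values below compare these libraries, and no test of the cell populations was made.

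The LRO library held 16672852 reads assigned to transcripts and the non-LRO library 13418798. Among 14 LRO markers all were higher in the LRO library, with summed levels of 148 and 23.6 RPKM (reads scaled to transcript length and library size). These markers were listed with earlier results of these data known, so they are no independent check of the sorting. In bulk libraries of this kind, a larger share of muscle-like cells and more muscle RNA per cell cannot be told apart.

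Promoters are shown first for muscle genes whose start region carries the CArG box, the sequence bound by serum response factor (SRF), a regulator of muscle genes. In RefSeq (build GRCm38.p6), windows of 250 bases before to 50 bases after the annotated start were found for 33 of the 38 genes, as 44 windows. A CArG box (named SRF motif of 10 bases, here CC, a run of only A or T, and GG, searched on both strands, a palindromic match counted as 1) lay in 8 of the 44 windows (overlapping windows of Ldb3 included), or 18.2%, against 1.63% of all 32851 windows. Other motifs were searched as well, and the CArG box differed most from all windows. The MEF2 site lay in 6.82% against 3.19%, and TATAAA in 18.2% against 13.6%. GATAAG lay in 11.4% against 7.44%, and AAGTG in 36.4% against 46.4%. The 7 genes with a match were Acta1, Actc1, Ldb3, Myl3, Myl7, Myom1 and Nebl. Nebl had several windows, and only that at chr2:17462807-17463106 held a match. Windows were matched by gene symbol, so a match need not lie at the start of the transcript that was counted. A match is a description of the letters only, and no binding was measured. The windows below are 5′ to 3′ on the gene's own strand, with the CArG box in capitals, for Acta1 (chr8:123894726-123895025), Actc1 (chr2:114052826-114053125), Ldb3 (chr14:34588558-34588857) and Myl7 (chr11:5898733-5899032), all on the minus strand.
Acta1: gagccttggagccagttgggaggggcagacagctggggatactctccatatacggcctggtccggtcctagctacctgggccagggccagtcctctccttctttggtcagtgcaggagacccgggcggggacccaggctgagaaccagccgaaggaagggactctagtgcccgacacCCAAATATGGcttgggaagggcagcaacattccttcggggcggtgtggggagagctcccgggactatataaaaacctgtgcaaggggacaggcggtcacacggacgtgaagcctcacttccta
Actc1: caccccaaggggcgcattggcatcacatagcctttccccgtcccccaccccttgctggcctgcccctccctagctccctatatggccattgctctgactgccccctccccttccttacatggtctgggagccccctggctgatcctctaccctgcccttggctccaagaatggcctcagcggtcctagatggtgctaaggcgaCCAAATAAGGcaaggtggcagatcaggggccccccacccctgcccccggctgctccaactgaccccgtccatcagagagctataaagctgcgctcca
Ldb3: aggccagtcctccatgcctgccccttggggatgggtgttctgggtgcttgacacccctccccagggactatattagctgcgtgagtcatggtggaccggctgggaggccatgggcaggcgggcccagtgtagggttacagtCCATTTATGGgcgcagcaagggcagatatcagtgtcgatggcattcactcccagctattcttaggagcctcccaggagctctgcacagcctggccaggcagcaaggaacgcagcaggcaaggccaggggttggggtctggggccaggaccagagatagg
Myl7: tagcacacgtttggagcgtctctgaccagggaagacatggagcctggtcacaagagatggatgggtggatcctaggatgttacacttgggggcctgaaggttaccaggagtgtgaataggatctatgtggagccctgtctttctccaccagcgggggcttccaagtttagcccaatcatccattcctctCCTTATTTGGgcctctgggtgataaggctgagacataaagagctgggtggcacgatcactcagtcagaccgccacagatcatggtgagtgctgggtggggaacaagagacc

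In these windows the box occupied bases 178 to 187 of Acta1, 204 to 213 of Actc1, 142 to 151 of Ldb3 and 190 to 199 of Myl7, counted from 1 at the 5′ end. The smooth muscle actin gene Acta2 and the muscle methyltransferase gene Smyd1 are shown as well. Neither window held an exact CArG box, and their read ratios lay far apart. They lie at chr19:34255324-34255623 and chr6:71262232-71262531, also on the minus strand. The absence of a match holds for this exact pattern only, since near matches were not counted, and it says nothing of the factor. Both windows held near matches, each 1 base off the pattern. These were ccctatatgg and ccttgtttgg in Acta2 and ccatttatag in Smyd1, so neither gene stands for a promoter without such a sequence.
Acta2: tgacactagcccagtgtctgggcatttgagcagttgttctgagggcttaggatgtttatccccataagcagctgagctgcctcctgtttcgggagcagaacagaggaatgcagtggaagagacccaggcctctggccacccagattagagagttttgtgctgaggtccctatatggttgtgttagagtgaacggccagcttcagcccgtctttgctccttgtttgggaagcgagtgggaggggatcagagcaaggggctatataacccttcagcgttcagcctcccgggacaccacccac
Smyd1: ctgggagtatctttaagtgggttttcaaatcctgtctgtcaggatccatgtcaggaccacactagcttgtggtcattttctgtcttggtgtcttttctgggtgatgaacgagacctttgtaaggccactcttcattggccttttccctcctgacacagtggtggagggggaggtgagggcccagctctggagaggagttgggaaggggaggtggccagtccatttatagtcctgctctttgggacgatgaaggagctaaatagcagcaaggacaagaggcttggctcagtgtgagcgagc

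Many of the sarcomere and cardiac muscle genes were higher in the LRO library, led by Acta1, Myh7, Xirp1, Rbm24 and Smyd1. A gene was called higher when the 95% counting interval of its LRO to non-LRO ratio, scaled to library totals, lay above 2, and lower when it lay under 0.5. By this rule 16 of 37 genes were higher, 1 was lower and 20 were neither. Over all 17586 genes 3.97% were higher and 12.3% lower. The ratio was above 1 for 31 of the 37 genes and for 5311 of all genes. The median log2 ratio (pseudocount of 1 read) was 1.18 for these genes and -0.42 over all genes. The 9894 genes with 50 reads or more in each library had a median of -0.31, and measured from that value the median of the muscle genes was 1.49. Of all calls 24.4% were higher here, 45.0% with TMM factors and 42.3% with the median ratio of well-read genes, both of which centre the ratios. There were 8 muscle genes with fewer than 50 reads over both libraries, none of them higher.

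The scaling and the rule changed the count of higher muscle genes within limits. With TMM factors 20 were higher and 1 lower, against 6.45% and 7.89% of all genes, and with the median ratio also 20 and 1, against 6.00% and 8.21%. Scaling to assigned reads gave 16 and 1 (3.96% and 12.4% of all genes), and totals without Rn45s and Lars2 gave 18 and 1 (4.44% and 10.8%). A fold bound of 1.5 gave 21 and 1 (7.06% and 22.0%), a fold bound of 4 gave 6 and 0 (1.40% and 3.87%), and a 99% interval gave 14 and 1 (3.21% and 9.61%). Among genes with 50 reads or more over both libraries, 16 of 29 muscle genes were higher and 0 lower (4.29% and 11.2% of 12033 genes). Reads divided by 10 gave 6 and 0 (0.853% and 1.65%), the deeper library thinned gave 16 and 1 (3.90% and 11.2%), and the transcript with most reads of each gene gave 17 and 1 (4.69% and 12.9%). The share of higher muscle genes was above the share over all genes under each of these settings. The genes were chosen with earlier results of these data known, so this describes the list and is no independent test of it.

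**Figure D1:**
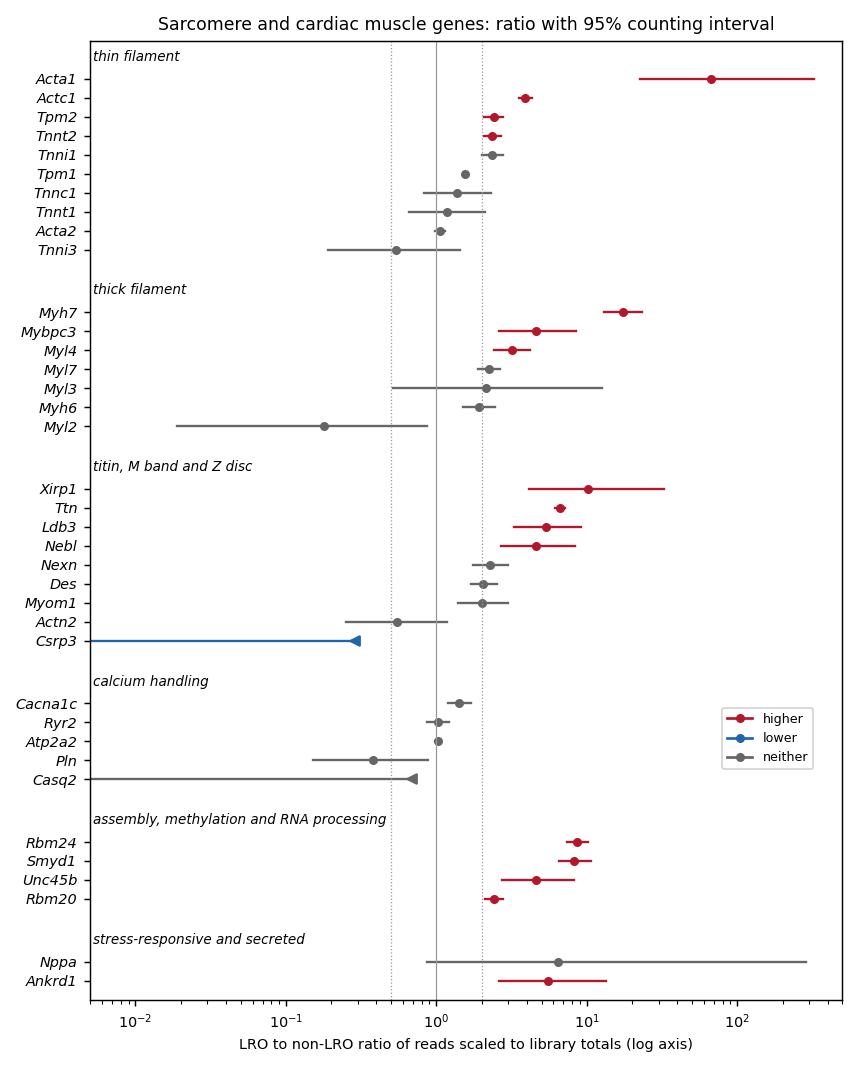
LRO to non-LRO ratio of reads for 37 muscle genes on a log axis, grouped by role, with points for the ratio and lines for the 95% counting interval. Red marks the 16 higher genes and blue the 1 lower gene, a triangle marks the upper bound of a gene with 0 LRO reads, and dotted lines stand at 0.5 and 2. No calcium handling gene lies wholly above 2 or below 0.5, with Cacna1c the highest of them at 1.42, and all 4 assembly and RNA-processing genes lie above 2. Over all genes 3.97% were higher and 12.3% lower.

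In the thin filament, the actin genes differed most. Acta1, which encodes the alpha actin of skeletal muscle and is also made in the embryonic heart, had 248 LRO reads and 3 non-LRO reads (5.54 and 0.0866 RPKM). The ratio of 66.6 (95% interval 22.5 to 325) was the highest of the 37 genes. Actc1, the alpha actin of cardiac muscle, had 2382 and 494 reads, a ratio of 3.89 (3.53 to 4.29). Acta2, the smooth muscle alpha actin, which is also made in the early heart, had 1397 and 1066 reads, and its ratio of 1.06 (0.975 to 1.15) was neither. The libraries thus differed over Acta1 and Actc1 and were close over Acta2. Of the 50-base windows of Acta1, 2.02% also lay in transcripts of other genes, the cytoplasmic actin gene Actb among them, and no window of Actc1 was shared with another gene's annotated transcript.

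Of the 5 troponin genes among the 38, Tnnt2 and Tnni1 had the most reads. Tnnt2, cardiac troponin T, had 901 and 309 reads and was 2.35-fold higher (2.06 to 2.68). Tnni1, the slow skeletal troponin I that the embryonic heart uses, had 599 and 206 reads, and its ratio of 2.34 (1.998 to 2.76) fell just short of the rule but passed it with TMM factors, at 2.98. Tnnc1, the calcium-binding troponin C, had 44 and 26 reads, a ratio of 1.36 (0.822 to 2.31). Tnnt1, slow skeletal troponin T, had 32 and 22 reads, and Tnni3, the troponin I of the mature heart, had 8 and 12. For these last 3 genes the interval of the ratio included 1.

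Both tropomyosin genes, whose products lie along the actin filament, had ratios above 1, and Tpm2 passed the rule. Tpm1 had the highest level of all 37 genes in each library, at 183 and 116 RPKM, and its ratio of 1.55 (1.499 to 1.61) was neither. Tpm2 had 738 and 247 reads and was 2.41-fold higher (2.08 to 2.79), and with a 99% interval neither Tpm2 nor Tnnt2 was called.

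In the thick filament, the myosin heavy chain genes moved unequally. Myh7, the beta heavy chain, had 1095 and 51 reads (5.97 and 0.348 RPKM) and was 17.3-fold higher (13.1 to 23.4). Myh6, the alpha heavy chain, had 236 and 99 reads, a ratio of 1.92 (1.51 to 2.46) that was neither. The non-LRO library therefore held more Myh6 than Myh7 and the LRO library the reverse. These neighbouring genes share 21.9% of the 50-base windows of Myh6 and 21.2% of those of Myh7, so the split of reads between them is less certain than for other genes.

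Of the light chains, the atrial and embryonic forms were detected well. Myl4 had 271 and 69 reads and was 3.17-fold higher (2.42 to 4.19). Myl7 had 530 and 191 reads, a ratio of 2.24 (1.89 to 2.65) that was neither here and higher with TMM factors. The ventricular forms were scarce. Myl2 had 2 and 9 reads and Myl3 8 and 3, with ratios of 0.179 (0.0188 to 0.865) and 2.15 (0.516 to 12.6). Mybpc3, cardiac myosin-binding protein C, had 85 and 15 reads and was 4.57-fold higher (2.62 to 8.52).

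**Figure D2:**
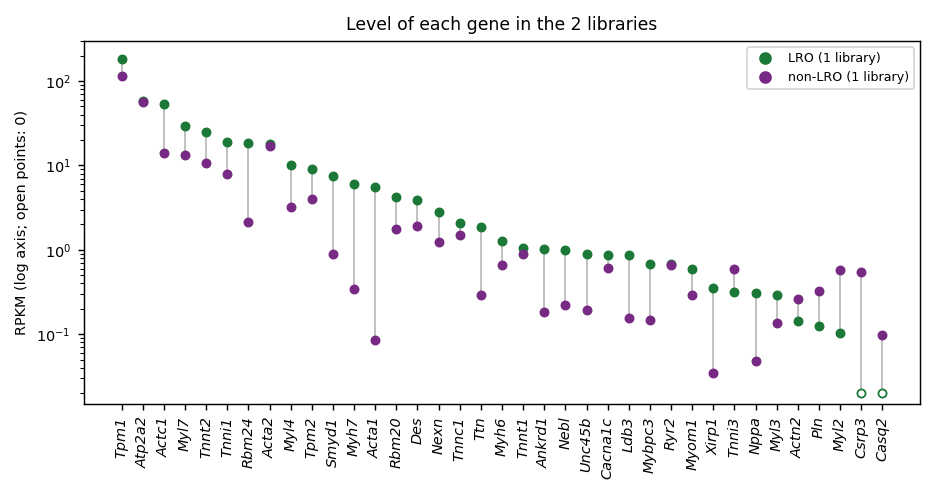
RPKM of each of the 37 genes in the LRO library (green) and the non-LRO library (purple) on a log axis, ordered by the LRO level, with open points for 0. Tpm1 leads at 183 and 116 RPKM, Acta1 spans 5.54 to 0.0866 RPKM, and Csrp3 and Casq2 stand at 0 in the LRO library.

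Titin and several Z disc genes were higher. Ttn, the giant spring of the sarcomere, had 5666 and 688 reads and was 6.64-fold higher (6.13 to 7.196). These reads were spread over very long transcripts, and the level per length was low, at 1.86 and 0.292 RPKM. Xirp1, an actin-binding protein of muscle junctions, had 63 and 5 reads, a ratio of 10.2 (4.13 to 32.4). Ldb3, a PDZ and LIM protein that binds alpha-actinin at the Z disc, had 126 and 19 reads, a ratio of 5.35 (3.28 to 9.17). Nebl, the nebulin relative of cardiac muscle, had 91 and 16 reads, a ratio of 4.58 (2.68 to 8.36).

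Other genes of this group did not pass the rule, or went the other way. Nexn, an actin-binding Z disc protein, had 221 and 78 reads, a ratio of 2.28 (1.76 to 2.996). Des, the muscle intermediate filament desmin, had 362 and 142 reads, a ratio of 2.06 (1.69 to 2.51), and both were higher with TMM factors. Myom1, the M band protein myomesin, had 98 and 39 reads, a ratio of 2.03 (1.38 to 3.02). Actn2, the alpha-actinin that anchors thin filaments at the Z disc, had 13 and 19 reads, a ratio of 0.552 (0.250 to 1.18). Csrp3, a LIM protein of the cardiac Z disc, had 0 LRO reads and 12 non-LRO reads, and the upper bound of its ratio was 0.290. It was the 1 lower gene, and with at least 50 reads required over both libraries it was not tested.

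None of the 5 genes that handle calcium was called in either direction. Over all genes 3.97% were higher and 12.3% lower, so 0 calls among 5 genes is near those shares. Atp2a2, the calcium pump of the sarcoplasmic reticulum that most cells also use, had 7924 and 6268 reads, a ratio of 1.02 (0.986 to 1.05). Ryr2, the calcium release channel of the heart, had 344 and 270 reads, a ratio of 1.03 (0.873 to 1.21). Cacna1c, the pore of the L-type calcium channel, had 357 and 203 reads, a ratio of 1.42 (1.19 to 1.69). Measured from the median of well-read genes, the log2 ratios of these 3 genes were 0.33, 0.34 and 0.81. The pump inhibitor Pln had 9 and 19 reads, a ratio of 0.382 (0.152 to 0.886). The calcium store protein Casq2 had 0 and 6, with an upper bound of 0.685. The interval of Cacna1c thus lay above 1, and those of Pln and Casq2 under 1. Of the 50-base windows of Pln, 56.2% also lay in transcripts of other annotated genes, mainly Gm47644, so its reads are uncertain. Unc45b and Des shared 7.33% and 5.81% of their windows with other genes, and 26 of the muscle genes shared under 1%.

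Genes for sarcomere assembly and muscle RNA processing were all higher. Rbm24, an RNA-binding protein that controls splicing in the heart and in muscle, had 1812 and 169 reads (18.6 and 2.15 RPKM) and was 8.64-fold higher (7.38 to 10.2). Smyd1, a methyltransferase of developing muscle, had 749 and 73 reads and was 8.27-fold higher (6.498 to 10.7). Unc45b, the chaperone that folds myosin heads, had 97 and 17 reads and was 4.60-fold higher (2.73 to 8.22). Rbm20, a splicing factor that acts on titin, had 853 and 286 reads and was 2.40-fold higher (2.10 to 2.76). The summed level of these 4 genes was 31.1 RPKM in the LRO library and 5.02 RPKM in the non-LRO library.

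Of the remaining genes, Ankrd1, a nuclear and sarcomeric ankyrin repeat protein induced by stretch, had 55 and 8 reads, a ratio of 5.54 (2.62 to 13.5). Nppa, the atrial natriuretic peptide, had 8 and 1 reads, a ratio of 6.45 (0.865 to 286), and 53.4% of its windows lay in Gm13054 as well. The interval of Nppa included 1, so no difference was detectable at this depth, whereas Ankrd1 passed the rule.

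All 37 genes together made up 468 RPKM in the LRO library and 259 RPKM in the non-LRO library, 1.81 times as much. Without Tpm1, the most abundant gene in both, the ratio of the sums was 1.99. The genes above 20 RPKM were Tpm1, Atp2a2, Actc1, Myl7 and Tnnt2 in the LRO library, and Tpm1 and Atp2a2 in the non-LRO library.

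The composition of each paralog set within a library does not depend on how the libraries are scaled. Among the actins Actc1, Acta1 and Acta2, Actc1 made up 69.7% of the summed RPKM of LRO cells and 44.8% of that of non-LRO cells. Acta1 made up 7.15% and 0.280%, and Acta2 23.2% and 54.9%. As shares of reads, those of Acta1 were 6.16% (exact binomial 95% interval 5.44% to 6.95%) and 0.192% (0.0396% to 0.560%). The striated muscle actins thus made up most of the set in the LRO library, and Acta2 most of it in the non-LRO library.

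Of the summed RPKM of Myh6 and Myh7, Myh7 made up 82.3% in LRO cells and 34.3% in non-LRO cells. Its shares of reads were 82.3% (80.1% to 84.3%) of 1331 reads and 34.0% (26.5% to 42.2%) of 150 reads, and these intervals did not overlap. For the other sets the same paralog led in both libraries. Myl7 held 99.6% and 95.8% of the RPKM of Myl7 and Myl2, and Myl4 97.2% and 95.9% of that of Myl4 and Myl3. Tnni1 held 98.3% and 93.0% of the RPKM of Tnni1 and Tnni3, and Tnnt2 96.0% and 92.3% of that of Tnnt2 and Tnnt1. Tpm1 held 95.3% and 96.7% of the tropomyosin RPKM. In the LRO library 8 reads of 607 fell on Tnni3, the troponin I of the mature heart, and 2 of 532 on Myl2, a ventricular light chain.

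**Figure D3:**
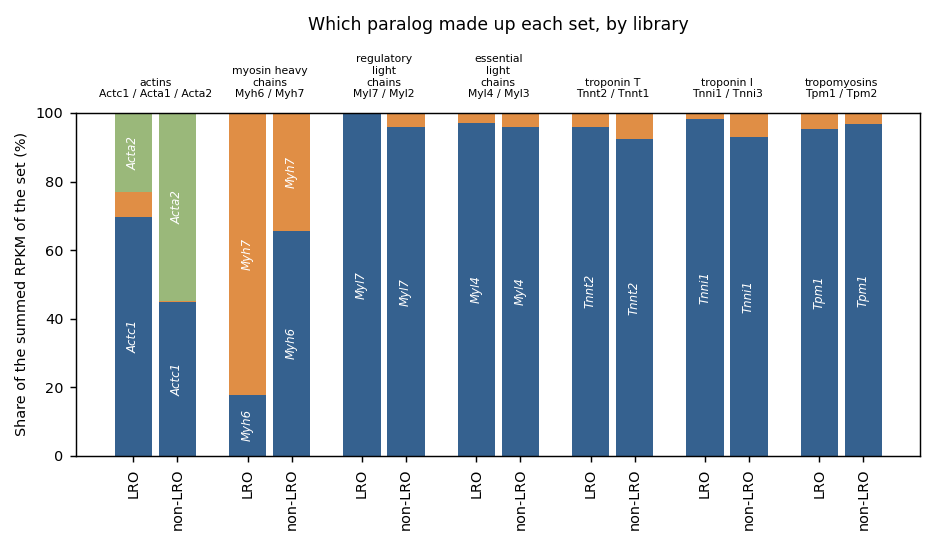
Share of each paralog in the summed RPKM of its set, in percent, with bars for the LRO and the non-LRO library. Myh7 takes 82.3% of its set in LRO cells and 34.3% in non-LRO cells, and Actc1 69.7% and 44.8%, while in the other 5 sets the same paralog leads in both.

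The table held 84 transcripts of the 37 genes, and 15 genes had several. Reads shared by transcripts were split in the deposited values, so transcript values are less certain than gene sums. By the same rule 26 of the 84 were higher and 2 lower, against 5.11% and 13.9% of all 27606 transcripts, and Tpm2 was the 1 gene with transcripts in both directions. For Ttn, the transcript of 101674 bases had 5389 and 536 reads, a ratio of 8.10 (7.41 to 8.87), and that of 81931 bases had 277 and 152 reads, a ratio of 1.47 (1.20 to 1.80). The longer transcript took 95.1% of the Ttn reads of LRO cells and 77.9% of those of non-LRO cells.

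For Tnni1, the transcript of 1038 bases was 4.43-fold higher (3.42 to 5.81), with 379 and 69.0 reads, and that of 1086 bases had 220 and 137 reads, a ratio of 1.29 (1.04 to 1.61). The gene sum therefore joined a transcript that passed the rule with one that did not. For Smyd1, the transcript of 3361 bases had 389 and 12.3 reads, a ratio of 26.1 (14.8 to 51.0), and that of 3322 bases had 360 and 60.7 reads, a ratio of 4.76 (3.62 to 6.35). For Tnnt2, the leading transcript of the LRO library (1220 bases) had 346 and 71.5 reads, a ratio of 3.93 (3.04 to 5.15). The leading Tnnt2 transcript of the non-LRO library (1190 bases) had 79.4 and 95.9 reads, a ratio of 0.663 (0.486 to 0.903). In Tpm1, the transcript of 1577 bases was 4.04-fold higher (3.24 to 5.08), with 486 and 96.5 reads, although the gene sum was neither. Of the 11 transcripts of Cacna1c 3 were higher, but the one with most reads (13634 bases) had 35.3 and 66.6 reads, a ratio of 0.421 (0.272 to 0.643) against 1.42 for the gene. For Ldb3, the transcript of 5040 bases had 76.8 and 2.72 reads, a ratio of 20.7 (6.82 to 103), and that of 4908 bases had 37.5 and 9.97 reads, a ratio of 2.98 (1.45 to 6.73) that was neither.

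The genes were set beside the marker lists of the study's single-cell clusters, which came from different embryos. Of the 38 genes, 16 stood in its list for cardiac and pharyngeal mesoderm and none in its list for the LRO cluster. Of those 16, 7 were higher in the bulk LRO library (43.8%), 1 was lower (Csrp3, 6.25%) and 8 were neither. Over all genes 3.97% were higher and 12.3% lower, and the same shares apply to the counts below. Of 6 genes in the mesenchyme list, Tnnt2 and Tpm2 were higher and 4 were neither. Of the 20 genes in none of the study's lists 19 were measured, and 9 of these were higher, Acta1, Myh7, Smyd1, Xirp1, Ldb3 and Rbm20 among them. The other 10 were neither, and 4 of them (Myl2, Actn2, Pln and Casq2) had ratios under 1.

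Other genes of muscle, from lists that hold none of the 38, are given beside the 3.97% higher and 12.3% lower over all genes. Of 16 further thick filament genes 2 were higher (12.5%) and 2 lower (12.5%). Myom2, a myomesin of the M band, was higher with 27 and 0 reads, and Mybphl, a relative of myosin-binding protein H, was lower with 0 and 10. Of 22 further thin filament and Z disc genes 5 were higher (22.7%) and 3 lower (13.6%). Synpo2l, a Z disc protein of the heart, led with 186 and 6 reads, a ratio of 24.99 (11.3 to 69.0), and the fast troponin T gene Tnnt3 had 181 and 36 reads, a ratio of 4.05 (2.82 to 5.97). Tmod1, which caps thin filaments and is also made in red blood cells, had 100 and 275 reads, a ratio of 0.293 (0.231 to 0.370).

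Of 26 further genes of calcium handling and excitation 4 were higher (15.4%) and 2 lower (7.69%). The sodium–calcium exchanger gene Slc8a1 had 563 and 122 reads, a ratio of 3.72 (3.05 to 4.56), and Jph2, which holds the calcium store to the cell membrane, had 156 and 29 reads, a ratio of 4.34 (2.90 to 6.69). The connexin gene Gja5, also made in arteries, had 0 and 31 reads. None of 17 non-muscle paralogs was called in either direction, Actb, Actg1, Myh9 and Tpm4 among them, with a median log2 ratio of 0.42 measured from that of well-read genes. Among 7 muscle metabolic genes Cox7a1, a muscle subunit of cytochrome oxidase, was higher with 42 and 4 reads, and no transcript of Ckm, Ckmt2 or Mb was listed. On the same scale the medians of the further thick filament, thin filament and calcium lists were 0.80, 0.95 and 0.57, and that of the thin filament list was -0.01 with genes at 0 reads set to a floor of 3 reads.

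Some smooth muscle and skeletal muscle genes were higher and most were neither, beside 3.97% higher and 12.3% lower over all genes. Of 11 smooth muscle genes 4 were higher (36.4%), 1 was lower (9.09%) and 6 were neither. Myocd, the SRF cofactor of cardiac and smooth muscle, had 1870 and 239 reads, a ratio of 6.31 (5.51 to 7.25), Lmod1, a nucleator of actin filaments, had 194 and 7, and Actg2, the enteric smooth muscle actin, had 3 and 26. Of 5 measured regulators of skeletal muscle Myf5 and Pax7 were higher, with 18 and 1 and with 37 and 6 reads, and the other 3 were neither. No transcript of Myod1, Myog or Myf6 was listed.

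Markers of other cells differed between the libraries in both directions. Of 11 markers of pharyngeal mesoderm and the second heart field 6 were higher and 0 lower, with summed levels of 67.0 and 24.9 RPKM, led by Nkx2-6 with 322 and 8 reads. Cardiac transcription factors went both ways, with 4 of 19 higher (Nkx2-5, Mef2c, Hopx and Myocd) and 5 lower (Hand1, Gata4, Tbx20, Tbx2 and Tbx3). Their summed levels were 118 and 166 RPKM, of which Hand1 alone gave 4.77 and 68.9, so the order of the sums depends on that gene. Hand1 also stands in the allantois list below, and Myocd in the smooth muscle list above. Of 8 neural crest markers 6 were higher, with 34.9 and 20.0 RPKM. Of 10 somite markers 0 were higher, 4 lower and 6 neither, and 4 of the 10 had a ratio above 1. Their summed levels were 72.3 and 95.3 RPKM, of which Aldh1a2 alone gave 33.1 and 71.0, so the order of these sums also depends on 1 gene.

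Markers of blood, vessels and extraembryonic tissue were lower in the LRO library. All 9 erythroid markers were lower, with summed levels of 0.859 and 2566 RPKM, and Gata1, Klf1 and Hemgn among them had 0 LRO reads. Endothelial markers were lower for 9 of 10 genes, with 9.36 and 47.7 RPKM and Pecam1 and Cldn5 at 0 LRO reads. Of 8 allantois and extraembryonic mesoderm markers 7 were lower, with 44.6 and 197 RPKM, and all 8 extraembryonic endoderm markers were lower, with 5.60 and 83.6 RPKM. The part of these cell types in the ratios of the muscle genes was not tested.

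**Figure D4:**
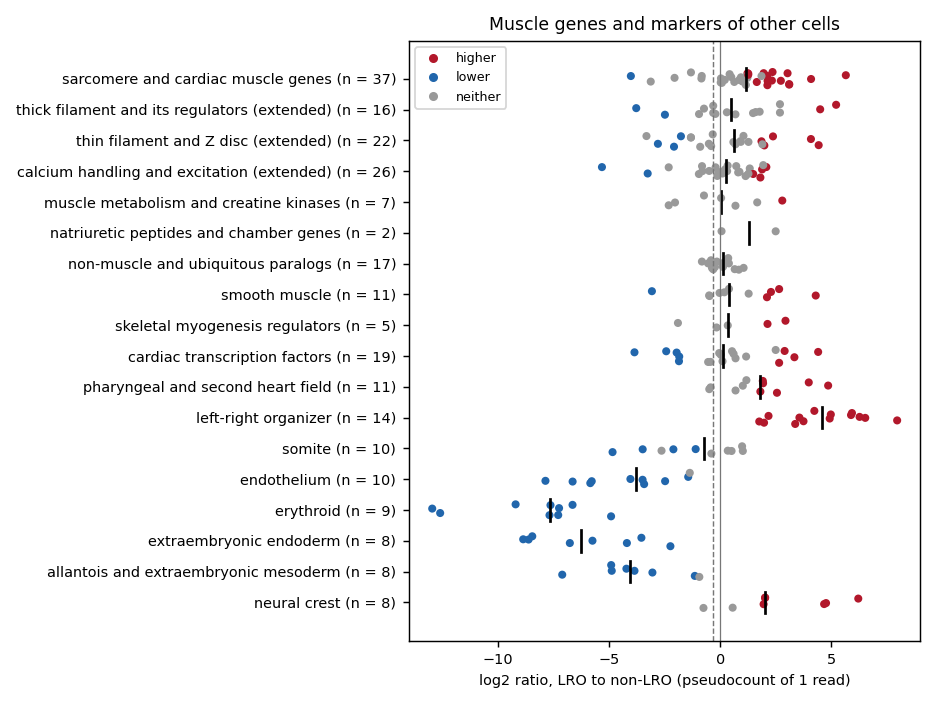
Log2 ratio of LRO to non-LRO reads (pseudocount of 1 read) for each measured gene of the 37 muscle genes, of further muscle lists and of marker lists. Points are genes, coloured red for higher, blue for lower and grey for neither, black bars are list medians, the solid line is at 0 and the dashed line at -0.31, the median of well-read genes. The muscle genes have a median of 1.18, pharyngeal markers lie to the right and erythroid and endothelial markers to the left.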

How the data were processed

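RNA from GFP-positive LRO cells and GFP-negative non-LRO cells was amplified by a kit that does not keep strand and fragmented by transposase. The authors used TopHat for alignment, then Partek Genomics Suite 6.6 for quantification. The deposited values are estimated counts per RefSeq transcript, with shared reads split between transcripts, and RPKM as calculated by the authors. Transcript length in bases was deposited as another column. The deposited p-values and chi-square values of the authors' own comparison, and 4 further columns of values, were not used.

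The column of the non-LRO library names GFP-negative cells. The column of the LRO library carries no label of a sample, and it was assigned because no further library is in the table and the study's own listing gives these reads to GFP-positive cells. The labels name mm10, but transcript ends on chromosome 1 reach 197002910, past the last end of 195323493 in GENCODE M21, so the table follows an older build and its positions were not mixed with GRCm38.

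Reads were summed per symbol over 27606 transcripts, rounded to whole numbers, and scaled to the library totals behind RPKM (30277870 for LRO and 24407299 for non-LRO). Ratios carry exact conditional binomial (Clopper-Pearson) 95% intervals, with bounds of 2 and 0.5 for a call. Intervals and floors cover counting error only, and amplified reads are not independent molecules. A floor of 3 reads equalled 9.91e-06% (LRO) and 1.23e-05% (non-LRO) of these totals. With 1 library per group no p-value was computed. The interval code was tested on simulated data. Windows of 50 bases, the read length, were taken from GENCODE M21 protein-coding transcripts of each gene and matched exactly, on both strands, to the transcripts of all other genes.

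The genes, lists and rules were chosen with earlier results of these data known. All 38 genes may be named. Some genes of the other lists are not reported here by name. From other lists up to 5 higher genes with the highest lower bound and 5 lower genes with the lowest upper bound were named, besides genes at 0 reads in both libraries. Other genes named from the lists (Actb, Actg1, Myh9, Tpm4, and the erythroid and endothelial genes at 0 LRO reads) were chosen after their values were seen. Alternatives were other scalings (TMM from edgeR 4.0.16 among them), bounds, intervals, read minimums and pseudocounts (0.5 and 5), and sums of RPKM built in other ways. Python 3.11.15 and SciPy 1.17.1 were used.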

Additional observations from a re-analysis of the deposited data

How the results depend on the processing

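Of 37 genes 16 were higher, and 14 to 21 were higher under 9 of the 11 alternatives. The exceptions were a fold bound of 4, with 6, and reads divided by 10, also with 6, which stands for amplified copies of fewer molecules. The count of lower genes, 1 as reported, was 0 under both, and 0 where 50 reads over both libraries were required, which Csrp3 with 12 reads does not reach. These settings ask for more by construction. Dividing reads by 10 ended 11 calls, Mybpc3, Myl4, Ldb3, Nebl, Xirp1, Unc45b, Ankrd1, Rbm20, Tnnt2, Tpm2 and Csrp3, and left Acta1, Actc1, Myh7, Ttn, Smyd1 and Rbm24. TMM factors added Tnni1, Myl7, Nexn and Des, and moved the median log2 ratio of the genes from 1.18 to 1.53 and that of well-read genes from -0.31 to 0.04. Divided by 10, the ratios of Acta1, Myl3 and Nppa had 0 non-LRO reads and gave no value. No called gene changed direction under an alternative. The ratio of summed RPKM was 1.81, 1.99 without Tpm1 and 1.84 with reads over the longest transcript of each gene. In place of shares of RPKM, shares of reads gave 59.2% and 31.6% for Actc1 within its set. No paired analysis was possible because no group had replicate libraries. Calls on fewer than about 50 reads are limited by depth.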

Other observations

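The pairs below were noticed after the values were seen and are given as values only, with positions from the deposited table in its older build. The troponin genes Tnni1 and Tnnt2 lie on chromosome 1 at 137695998 to 137707567 and 137732911 to 137748846, with 25.3 kb between them. Their ratios were 2.34 (1.998 to 2.76) and 2.35 (2.06 to 2.68). The other such pair, Tnnt1 and Tnni3, lies on chromosome 7 at 4456172 to 4467578 and 4469910 to 4474046, 2.33 kb apart. Their ratios were 1.17 (0.660 to 2.12) and 0.537 (0.191 to 1.43), on 32 and 22 and on 8 and 12 reads. Transcripts of Tnni3 share 2.76% of their 50-base windows with the neighbouring gene Dnaaf3, a dynein assembly factor of cilia, and the libraries do not keep strand.

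Myh6 and Myh7 lie in tandem on chromosome 14 at 55560758 to 55585445 and 55589525 to 55613387, with 4.08 kb between them, and had ratios of 1.92 (1.51 to 2.46) and 17.3 (13.1 to 23.4). Ryr2 and Actn2 lie on chromosome 13, 162 kb apart, and their ratios were 1.03 (0.873 to 1.21) and 0.552 (0.250 to 1.18). Of these pairs, Tnni1 and Tnnt2 were close in ratio and Myh6 and Myh7 far apart. The gene sums of Tnni1 and of Tnnt2 each join transcripts with unlike ratios. Myh6 and Myh7 share 21.9% and 21.2% of their windows with each other, so their split of reads is less certain.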
